A study of Mus musculus with 6 samples.

Results

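Trp63, the gene of the transcription factor p63, and 8 epithelial keratin genes (Krt5, Krt7, Krt8, Krt14, Krt15, Krt17, Krt18 and Krt19) were followed through 3 mouse cell populations. Every probe set whose single platform symbol is one of these genes was taken. All 9 genes were represented, by 17 probe sets out of 45137, and the arrays named 18193 genes in all. A probe set is the group of short array oligonucleotides that measures a transcript, and 16 of the 17 were on chip A and 1 on chip B of the Affymetrix pair. All animals were OMP-GFP mice, in which GFP stands in for the coding region of Omp, the olfactory marker protein of mature olfactory sensory neurons (OSNs). The first population was OSNs sorted by flow cytometry for GFP (about 500000 cells), and the second was the olfactory epithelium left once those cells were taken out (about 2500000 cells, here the residual epithelium). The third was brain without the olfactory bulbs. Age, sex and the number of animals were not stated in the labels at hand, nor was whether the OMP-GFP mice carried the allele on both chromosomes. The residual epithelium is what did not sort as GFP positive, so it mixes all other cells of the dissected tissue. There was 1 array for each population on each chip, so no difference below has a replicate check, and no p-value is given.

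Keratins are the intermediate filament proteins of epithelial cells. A filament always needs a partner from each of the acidic type I and basic type II families. Krt8 (type II) and Krt18 (type I) are the usual pair of simple, single-layered epithelia, and Krt7 and Krt19 are further simple or ductal epithelial keratins. Krt5 (type II) pairs with Krt14 (type I) in the basal layer of stratified epithelia, where Krt15 is also made, and Krt17 is best known from skin appendages and wounded epithelium. p63 is needed to form and keep basal cells. In the olfactory epithelium, p63, Krt5 and Krt14 mark the horizontal basal cells, a reserve stem cell that lies on the basal lamina. Krt8 and Krt18 mark sustentacular cells, the supporting cells, and cells of Bowman glands and their ducts.

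Sequence upstream of the annotated start was at hand for 4 keratins and is shown because Krt8 and Krt18, whose proteins pair with each other, had the same order of signals in the 3 populations. In RefSeq (GRCm38.p6) Krt8 and Krt18 are also next to each other among coding genes, on chromosome 15 and on opposite strands. Krt15 and Krt19 are neighbours in the type I cluster on chromosome 11. The 150 bases before each start are given 5′ to 3′ on the strand of the gene, with capitals on every match to TATAA, to ATAAAAG (both letters of TATA-like elements) or to GCCNNNGGC (the core that AP-2 factors bind), searched on both strands. The windows were chr15:101712906-101713055 (minus strand) for Krt5, chr15:101412253-101412402 (plus strand) for Krt7, chr15:102004343-102004492 (minus strand) for Krt8 and chr15:102028066-102028215 (plus strand) for Krt18.
Krt5: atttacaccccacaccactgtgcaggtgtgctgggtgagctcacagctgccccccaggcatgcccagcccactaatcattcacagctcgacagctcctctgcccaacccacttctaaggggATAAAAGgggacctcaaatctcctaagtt
Krt7: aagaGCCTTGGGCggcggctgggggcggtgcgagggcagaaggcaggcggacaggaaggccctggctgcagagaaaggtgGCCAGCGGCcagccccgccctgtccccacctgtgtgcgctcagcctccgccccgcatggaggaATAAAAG
Krt8: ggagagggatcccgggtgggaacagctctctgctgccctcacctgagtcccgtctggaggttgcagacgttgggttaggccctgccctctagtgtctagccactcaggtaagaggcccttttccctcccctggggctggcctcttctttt
Krt18: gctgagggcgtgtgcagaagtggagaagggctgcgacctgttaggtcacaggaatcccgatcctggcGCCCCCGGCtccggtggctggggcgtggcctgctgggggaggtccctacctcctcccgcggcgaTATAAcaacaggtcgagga
Krt5 held ATAAAAG starting 29 bases before the start and Krt7 held it 7 bases before. Krt18 held TATAA 19 bases before the start. GCCNNNGGC matched in Krt7 146 and 70 bases before the start and in Krt18 83 bases before it. In the Krt8 window none of these letters matched, so the paired genes Krt8 and Krt18 did not share a match. Of all 32851 windows of the same length in the RefSeq table, 14.2% held TATAA, 3.01% held ATAAAAG and 9.61% held GCCNNNGGC. A match describes letters only. The Krt14 window in that table lies inside the annotated gene and is not shown, and the other 4 genes are named only.

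Signals are array intensities on a linear scale, and all arrays had been brought to a common mean. The floor was 70.3 on chip A and 79.7 on chip B, the lower quartile of each chip's 3 arrays. Signals under it were raised to it before ratios were taken, have no order among themselves, and turn a ratio into a bound ("at least"). To be counted between a pair of populations, a gene or probe set needed 1 signal or both at or above the median of its chip (222 for A, 243.7 for B). The sort is visible in Omp, which read 11057 on the OSN array and 249 on the residual array, although GFP replaces its coding region and where its probes lie is not known here. As the only measures of error, the log2 ratio of OSNs over residual epithelium differed between the chips with an SD of 0.25 over 100 probe sets present on both. Between probe sets of a gene the SD was 0.62. For residual epithelium over brain the same SDs were 0.34 and 0.78. The SDs between chips leave out a mean shift. Chip A minus chip B was on average 0.23 for OSNs over residual epithelium and -0.42 for residual epithelium over brain. None of these values is a spread between animals. MAS5 processing is named for all arrays used except the brain array of chip A, which carries nearly every comparison with brain below.

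Krt18 and Krt8, the simple epithelial pair, were well above the floor in residual epithelium and were also measured in the sorted OSNs. Krt18 (1448169_at) read 3109 in residual epithelium, 606 in OSNs and 134 in brain. It was 5.13-fold lower in OSNs than in residual epithelium, a log2 ratio of -2.36, and 4.54-fold higher in OSNs than in brain. The order was residual epithelium, then OSNs, then brain, and each step was several times the SD between chips. In bulk RNA, fewer cells of a type and less RNA per cell cannot be told apart, here or in any result below.

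Krt8 kept that order with all 3 of its probe sets, which differed in size. Probe set 1420647_a_at had 819 in OSNs, 2058 in the residual epithelium, and 238 in brain. Probe set 1423691_x_at had 235, 1364 and 12.6 in the same order. Probe set 1435989_x_at had 162, 1532 and 15.4. All 3 were highest in residual epithelium and lowest in brain, and the brain signal was above the floor with 1420647_a_at alone. The OSN signal was 2.51-fold, 5.80-fold and 9.48-fold lower than the residual signal in that order of probe sets, so the log2 ratios spanned 1.91 units with an SD of 0.97, above the usual SD between probe sets of a gene. The suffix x_at marks probe sets in which some probes also match other genes, and keratin genes are alike in sequence, so the size of the Krt8 difference is uncertain while its direction was shared by all 3. Residual epithelium exceeded brain 8.67-fold with 1420647_a_at and by at least 19.4-fold and 21.8-fold with the others.

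Krt7 and Krt19, the other keratins of simple and ductal epithelium, were seen in residual epithelium only. Krt19 (1417156_at) had 18.2 in OSNs, 416 in the residual epithelium, and 10.9 in brain, so it was at least 5.92-fold higher in residual epithelium than in either other population. Krt7 (1423952_a_at) had 29.6, 214 and 7.4 in the same order, at least 3.04-fold higher. Its residual signal lay just under the chip median, so Krt7 was not counted. OSN and brain signals of both genes were under the floor and are not ordered.

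Among the basal cell genes, Trp63 and Krt14 each had probe sets that went different ways. For Trp63, 1418158_at had 52.7 in OSNs, 393 in the residual epithelium, and 48.3 in brain, at least 5.59-fold higher in residual epithelium than in both others. The other 3 Trp63 probe sets did not show this. Signals of 1451876_a_at were 20.3, 24.6 and 17.2 and those of 1452027_a_at were 38.2, 41.6 and 61.8, all under the floor. On chip B, 1459581_at had 168 in OSNs, 131 in the residual epithelium, and 80.2 in brain, with OSNs 1.29-fold above residual epithelium and all 3 signals under the chip median. Trp63 transcripts have alternative starts and ends, and which of them each probe set reads is not known here.

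Krt14 was read by 3 probe sets. With 1423935_x_at it had 18.5 in OSNs, 392 in the residual epithelium, and 6.7 in brain, and with 1460347_at it had 19.1, 243 and 20.0. These were at least 5.57-fold and at least 3.46-fold higher in residual epithelium than in both others. The first, 1423935_x_at, stands for the gene in the counts and carries the x_at suffix explained for Krt8. The third, 1455573_at, had 134 in OSNs, 84.2 in the residual epithelium, and 129 in brain, so residual epithelium was lowest, 0.67 log2 units under OSNs. Which probe set stands for the gene therefore decides the call for Trp63 and for Krt14: when probe sets were ranked on signals without the floor, the log2 ratio of OSNs over residual epithelium became 0.36 for Trp63 and 0.67 for Krt14, in place of bounds of -2.48 for each. A further probe set, 1427841_at, carries both the Krt17 and the Krt14 symbol and is no member. It had 224 in OSNs, 132 in the residual epithelium, and 153 in brain.

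Krt5, the type II partner of Krt14, had a single probe set (1424096_at) with 169 in OSNs, 563 in the residual epithelium, and 26.5 in brain. The OSN signal was 3.34-fold lower than the residual signal, which was at least 8.01-fold above brain. The OSN signal lay above the floor, as for Krt8 and Krt18, but under the chip median. Krt15 (1422667_at) had 8.8 in OSNs, 451 in the residual epithelium, and 8.6 in brain, so it was at least 6.41-fold higher in residual epithelium than in both others. Krt17 was near or under the floor throughout. Its probe set 1423227_at had 31.2, 88.0 and 4.9 in the same order, at least 1.25-fold higher in residual epithelium, and 1420193_at was under the floor everywhere with 57.2, 44.2 and 10.1. At these signals no difference of Krt17 was detectable with 1420193_at.

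**Figure D1:**
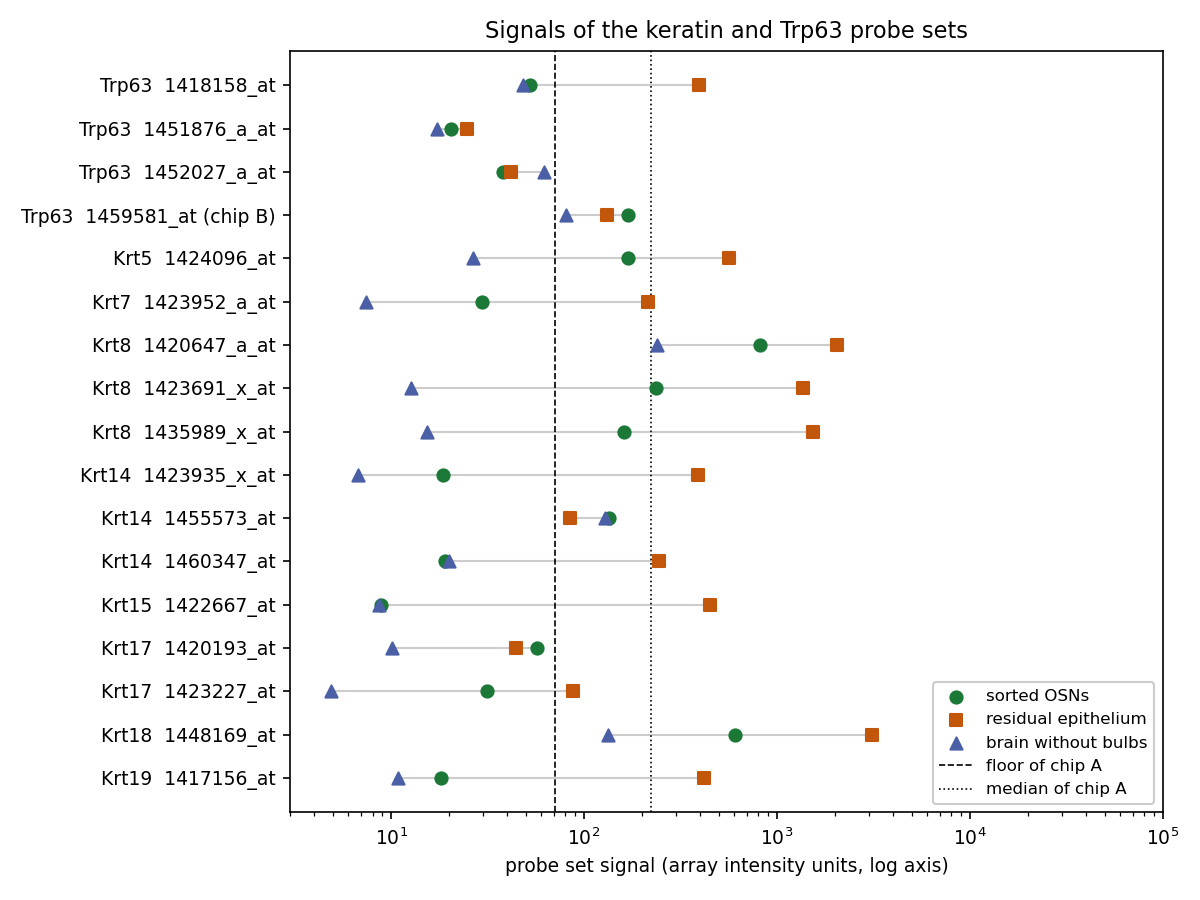
Signal of each of the 17 probe sets (array intensity units, log axis) in sorted OSNs (circles), residual epithelium (squares) and brain without bulbs (triangles), with 1 array per symbol and the floor (dashed) and median (dotted) of chip A. In rows with a signal at or above the floor, residual epithelium is farthest to the right, except for Trp63 1459581_at and Krt14 1455573_at, which are highest in OSNs. Points under the floor have no order among themselves.

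Of the 17 probe sets, 3 were under the floor in all 3 populations. Among the other 14, residual epithelium had the highest signal in 12, OSNs in 2 and brain in none. Of all 38723 probe sets with a signal at or above the floor, residual epithelium was highest in 33.4%, OSNs in 29.4% and brain in 37.1%. Member signals were under the floor for 10 of the 17 probe sets in OSNs, 3 in the residual epithelium, and 13 in brain.

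With 1 probe set per gene, 7 of the 9 genes could be counted for OSNs against residual epithelium. All 7 were lower in OSNs by 2-fold or more, where 18.7% of 12254 counted genes were. Only Krt8 and Krt18 had both signals above the chip median. For Trp63, Krt5, Krt14, Krt15 and Krt19 the counting rule was met through the residual array alone, which fixes the sign of their ratios, so the count of 7 is a description. Without the signal filter 8 of the 9 genes, all but Krt17, were lower in OSNs by 2-fold or more, with a median log2 ratio of -2.36, where 14.3% of 18193 genes were lower and the median was 0. By probe sets without the filter 11 of 17 were lower, where 12.1% of all were.

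Between residual epithelium and brain, 7 of the 9 genes were counted and 7 were at least 2-fold higher in residual epithelium, where 22.5% of 12916 genes were, again mostly through the residual array alone. Without the filter 8 of the 9 were higher, where 17.3% of all genes were. Krt8 and Krt18 had the ratios that were measured on both sides, 8.67-fold and 23.3-fold, and the other counted genes had bounds. Both comparisons use the same residual array, so their counts do not support each other. Between OSNs and brain only Krt8 and Krt18 were counted, the latter through the OSN array alone, which fixes the sign of its ratio. Both were at least 2-fold higher in OSNs, where 18.5% of 12380 genes were. Without the filter Krt5 joined them, at least 2.40-fold higher, as 1 of 3 among the 9 genes, where 13.6% of all genes were higher. For 6 of the 9 genes both signals were under the floor, so no ratio can be given. Scaling the arrays on the probe sets that both chips share moved the median log2 ratio of all genes by -0.28 for OSNs over brain and by -0.26 for residual epithelium over brain. The share of calls that were higher then went from 46.7% to 35.3% and from 54.3% to 42.7%, and the counts of 2 and 7 members stayed.

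**Figure D2:**
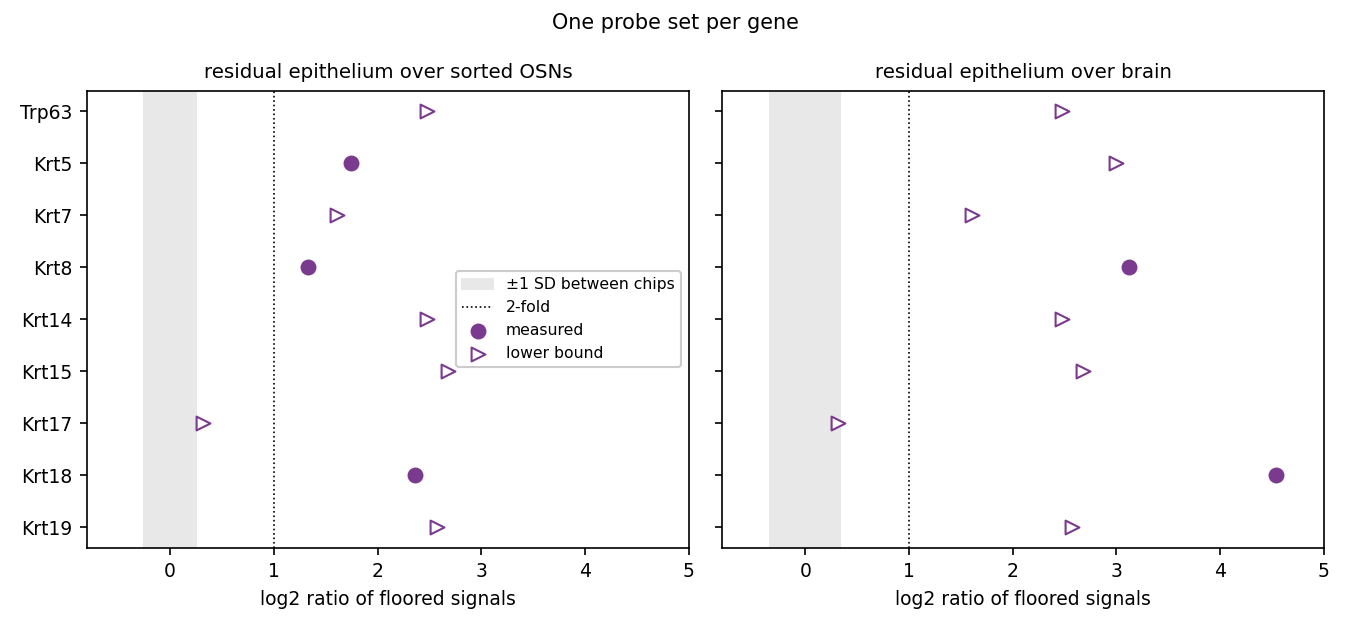
Log2 ratio of floored signals of each gene's representative probe set, residual epithelium over sorted OSNs (left) and over brain (right), with measured ratios as filled circles and lower bounds as open triangles. The grey band is 1 SD between chips on either side of 0 and the dotted line is 2-fold; all genes but Krt17 lie beyond it, of which Krt14 and, against OSNs, Trp63 change sign with another choice of probe set.

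The other 40 keratins on the arrays, mostly genes of skin, hair and tongue, were taken as a list of their own. Over all counted genes 18.7% were lower in OSNs by 2-fold or more and 12.8% higher, and in residual epithelium against brain 22.5% were higher and 18.9% lower, shares against which each list below can be read. Of 15 counted between OSNs and residual epithelium, 2 were lower by 2-fold or more in OSNs and 2 higher, and the median log2 ratio was 0.22, beside -0.05 over all counted genes. Krt23, a type I keratin, was 3.68-fold lower in OSNs and at least 4.21-fold higher in residual epithelium than in brain. Krt222, a keratin-like gene, was at least 3.09-fold lower in OSNs than in residual epithelium with one probe set and 0.04 log2 units lower with the other, and its signal was highest in brain, 1444 against 246 in residual epithelium. Krt76 was 1.79-fold lower in OSNs. Krt72 and Krt75, keratins of the hair follicle, were 4.83-fold and 2.48-fold above residual epithelium in OSNs, with OSN signals of 491 and 225, and Krt73 was 1.48-fold higher. Against brain, 3 of 14 counted were higher in residual epithelium and 3 were lower. Krt26 and Krt78 were at least 3.52-fold and 3.31-fold higher there, and Krt1 and Krt73 were 2.61-fold and 2.18-fold lower. Krt16, the gene next to Krt14, was under the floor in all 3 populations, with signals of 11.5, 15.2 and 6.7. Krt6a, the neighbour of Krt5, was nearly even with 226, 235 and 188.

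Keratin filaments end at desmosomes between cells and at hemidesmosomes on the basal lamina. A list of genes of these junctions also held the cadherins Cdh1 and Cdh3 and the basal lamina genes Lama3 and Lamb3. Of its 19 counted genes, 11 were lower by 2-fold or more in OSNs than in the residual epithelium and 1 higher (median -1.19). Itga6, an integrin subunit of hemidesmosomes, was at least 5.77-fold lower in OSNs. Pkp1, a desmosomal plakophilin, was at least 4.94-fold lower, and Lamb3, a chain of the basal lamina protein laminin-332, at least 4.11-fold lower. Col17a1, the hemidesmosome collagen, had 8.2 in OSNs, 223 in the residual epithelium, and 3.6 in brain. Desmoplakin (Dsp), which ties keratins to desmosomes, had 510, 1764 and 63.8, with OSNs between the other populations as for Krt8 and Krt18. Dst, a linker of filaments that neurons also make, was 2.31-fold higher in OSNs with probe sets from -1.44 to 1.21 log2 units, and Pkp4 and Ppl were 1.85-fold and 1.46-fold higher. Against brain, 11 of 20 genes of this list were at least 2-fold higher in residual epithelium and 4 were lower (median 1.24, beside 0.12 over all genes). Dsp, Dsg2 and Cdh1 led with at least 25.1-fold, 16.9-fold and 13.6-fold, though probe sets of Dsp ranged from 0.88 to 4.65 and those of Dsg2 from 0 to 4.08. Pkp4, Dst and Evpl were 4.97-fold, 3.87-fold and 2.44-fold lower than in brain, though probe sets of Dst ranged from -2.93 to 1.44.

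Of 16 counted genes of general epithelial identity, 5 were lower by 2-fold or more in OSNs, and no gene was higher by as much (median -0.65). E-cadherin (Cdh1), which is also in the junction list, was 4.02-fold lower, the transcription factor Elf3 3.56-fold and the claudin Cldn7 3.26-fold. Epcam, an adhesion molecule of epithelia, differed between OSNs and residual epithelium by under the SD between chips with both probe sets, and read 3460 in OSNs, 2960 in the residual epithelium, and 436 in brain with the chip B probe set. The chip A probe set read 4798, 5298 and 20.7, so the brain signal was under the floor and residual epithelium lay 6.24 log2 units above it as a bound, against 2.76 on chip B. Spint2, a protease inhibitor, St14, a protease, and Rab25, a trafficking GTPase, had OSN signals 1.56-fold, 1.15-fold and 1.14-fold above residual epithelium. Against brain, 12 of 17 were at least 2-fold higher in residual epithelium and none was lower by 2-fold (median 1.69). The higher genes included the splicing regulator Esrp1 (at least 27.7-fold) and Cldn7 (at least 21.0-fold). The transcription factors Grhl1, Grhl2 and Ovol2 were at 0.48, 0.38 and -0.72 log2 units, with Grhl2 probe sets from 0 to 2.55.

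Of 7 counted genes among relatives, partners and known targets of p63, 1 was lower by 2-fold or more in OSNs and 1 higher (median -0.01). The receptor genes Fgfr2 and Fgfr3 were 2.12-fold and 1.85-fold lower in OSNs, with Fgfr2 probe sets from -1.09 to 0.90, and Zfp750, an epidermal differentiation factor, was 1.63-fold lower. Jag2, a Notch ligand, was 2.36-fold higher, and Egfr and Cdkn1a were 1.41-fold and 1.17-fold higher, with Egfr probe sets from -1.98 to 0.87. Trp73, a relative of p63, had 91.2, 131 and 65.6, and Sfn, an epithelial 14-3-3 protein, was under the floor throughout. Against brain, 3 of 7 were higher in residual epithelium, Ripk4 (at least 13.4-fold), Zfp750 (at least 6.97-fold) and Cdkn1a (5.29-fold), and 1 was lower, Fgfr3 (2.56-fold), with Fgfr2 and Egfr 1.87-fold and 1.32-fold lower.

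Of 12 counted intermediate filament genes outside the keratins, lamins included, 3 were lower by 2-fold or more in OSNs than in the residual epithelium and 2 higher (median 0.10). Vimentin (Vim), the filament of mesenchymal, glial and blood cells, was 6.11-fold lower in OSNs, Bfsp2, known from the lens, 3.59-fold and the lamin Lmnb1 2.43-fold. Synemin (Synm) was at least 6.33-fold higher in OSNs, although its other probe set was at 0, peripherin (Prph), a filament of sensory neurons, 2.69-fold, and Lmna 1.66-fold with probe sets from -0.81 to 0.73. Against brain, residual epithelium was at least 2-fold higher for 5 of 15 and lower for 6 (median -0.57). Prph (at least 12.5-fold, with probe sets from -0.71 to 3.64), Vim (5.01-fold) and Bfsp2 (3.11-fold) were the highest. The neurofilament genes Nefl, Nefm and Nefh were 68.6-fold, at least 35.1-fold and 20.2-fold lower than in brain.

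**Figure D3:**
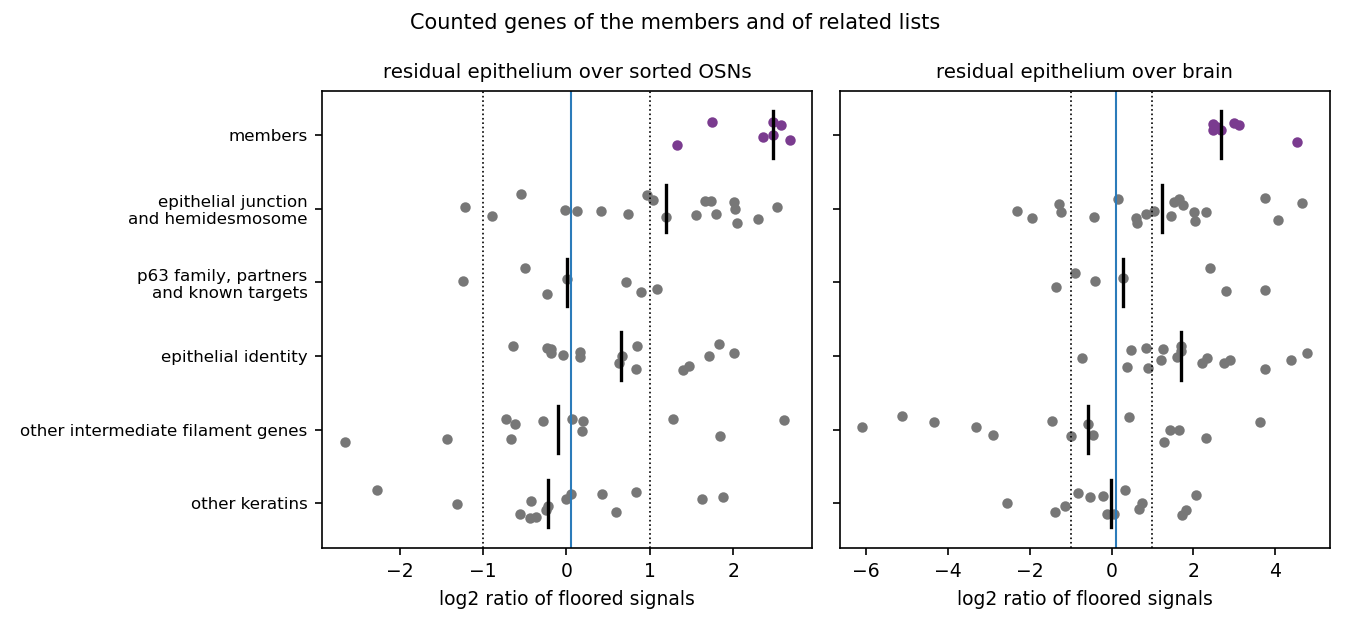
Log2 ratios of floored signals for the counted genes of the keratin and Trp63 group and of 5 related lists, residual epithelium over OSNs (left) and over brain (right), with a point per gene (bounds included at their bound), black bars at the median, blue lines at the median of all counted genes and dotted lines at 2-fold. The keratin and Trp63 points lie right of 2-fold in both panels, partly by the counting rule, and the other keratins are centred near 0; the Krt14 and Trp63 points depend on the probe set.

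Markers of other nasal cells were read beside the keratins, as summed signals of fixed lists on chip A. The 8 sustentacular markers summed to 9323 in OSNs, 17277 in the residual epithelium, and 1273 in brain, and none of them was under the floor in OSNs. The OSN sum was 54.0% of the residual one, beside 19.5% for Krt18, 39.8%, 17.3% and 10.6% for the 3 Krt8 probe sets and 30.0% for Krt5. Of the 9 sustentacular markers on both chips, 5 were lower in OSNs by 2-fold or more and none was higher by as much (median -1.20). Single markers of chip A ran from 12.7% (Gpx6) and 13.2% (Notch2) to 144% (Cyp2g1), so these keratin percentages lay within their range except the 10.6% of Krt8 1435989_x_at, and the sum was carried by Cyp2g1 (3822 in OSNs) and Cbr2 (2977). The 7 microvillous and tuft cell markers had 47.5%, the 9 of respiratory epithelium 39.6% and the 7 of Bowman glands 19.3%, with 2, 2 and 3 of them under the floor in OSNs. Without Bpifa1, which carried it, the Bowman gland sum was at 9.16%. Without Coch the microvillous and tuft cell sum was at 36.1%, and without Cyp2f2 the respiratory sum was at 46.1%. Single microvillous and tuft cell markers ran from 12.8% to 171% (Pou2f3), with 6 of 7 lower in OSNs. Single respiratory markers ran from 8.95% to 527% (Foxj1). Of the 10 respiratory markers on both chips 6 were counted, with 4 lower in OSNs by 2-fold or more and 1 higher. On chip B the Bowman gland marker Bpifb9b was at 0.965% and the respiratory marker Sec14l3 at 190%. Markers of non-neuronal epithelial cells were thus measured on the OSN array together with Krt8, Krt18 and Krt5. Their part in the OSN signals of these keratins was not tested.

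Horizontal basal cell markers other than keratins and Trp63 summed to 1291 in OSNs, 2020 in the residual epithelium, and 1971 in brain (7 genes, chip A). Most of the OSN sum was Egfr (1036), and 5 of the 7, Icam1, Itga6, Itgb4, Col17a1 and Sfn, were under the floor in OSNs. In residual epithelium 1 of the 7, Sfn, was under it, so that list was present in part. On chip B the marker Cd44, which blood cells also carry, had 308, 5070 and 406 with its representative probe set. The 4 Cd44 probe sets ran from -4.04 to 0 log2 units for OSNs over residual epithelium. For residual epithelium over brain they ran from 0 to 3.64, so the size of the Cd44 difference depends on the probe set. The residual array held much blood cell RNA, with 6 leukocyte markers at 59460 against 1108 in OSNs and 1098 in brain. The 6 progenitor markers were at 14055 in residual epithelium against 1002 in OSNs. Their part in the keratin ratios was not tested.

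In brain, where Krt8 (1420647_a_at) and Krt18 were above the floor, single markers of choroid plexus and leptomeninges were high, but not their lists throughout. Ttr, the choroid plexus carrier protein, had 34517 in brain and 482 in residual epithelium on chip B. The 6 choroid plexus and ependyma markers of chip A summed to 1007 in brain and 3060 in residual epithelium, mostly from Aqp1 (2054 in residual epithelium). Without Aqp1 the other 5 summed to 856 in brain and 1007 in residual epithelium. Single genes went both ways. Kl was at least 4.89-fold higher in brain, with its other probe set at 0, and Otx2 was at least 7.22-fold lower. The 6 leptomeningeal markers summed to 13655 in brain and 1993 in residual epithelium on chip A, mostly from Ptgds (12612 in brain). Without Ptgds the other 5 summed to 1043 in brain and 1516 in residual epithelium, so the direction turned. Their part in the brain signals of Krt8 and Krt18 was not tested.

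**Figure D4:**
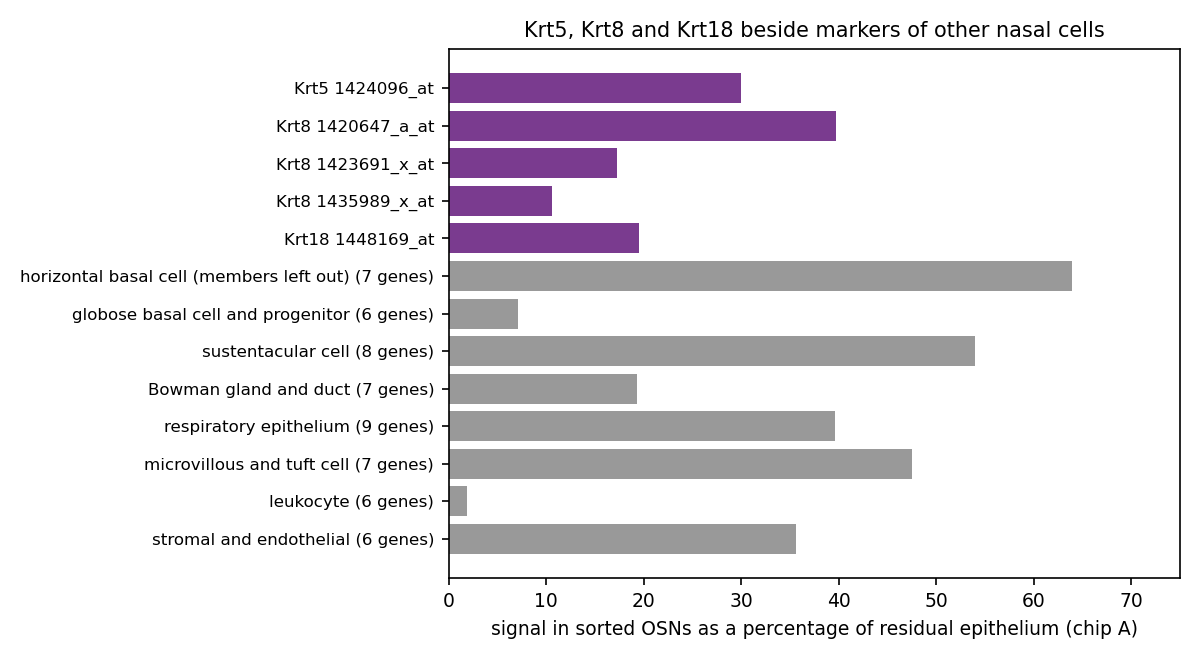
Signal in sorted OSNs as a percentage of that in residual epithelium on chip A, for the probe sets of Krt5, Krt8 and Krt18 (purple) and for summed markers of other nasal cells (grey), with 1 array per population and no error bar. Krt18 lies at 19.5% and the Krt8 probe sets between 10.6% and 39.8%, beside 54.0% for the sum of the sustentacular list, whose single markers run from 12.7% to 144%; the bar for horizontal basal cells is mostly Egfr.

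Likeness was measured as the distance between the 3 floored log2 signals of genes on chip A, over only 3 arrays. The genes nearest to Trp63 (1418158_at) were Krt14, Clec4a2 and Jchain, each at 0.01, and 80 of 10241 genes lay within 0.5. Since OSN and brain signals of these genes are at the floor, the residual signal alone sets that rank. Clec4a2 and Jchain are genes of blood cells. Krt5 was nearest to Dntt (0.25), a gene of lymphoid precursors, and then to St6galnac2 (0.34) and Ces1d (0.36), with 11 genes within 0.5. Krt18 was nearest to Smc4 (0.31), Plac8 (0.73) and Cks1b (0.94), with 1 gene within 0.5. Smc4 and Cks1b are genes of dividing cells, so a like pattern over these 3 populations was found in genes of different cell types.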

How the data were processed

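The authors deposited 1 intensity per probe set and array, unlogged, from single-colour hybridisations. The submitters' processing notes name MAS5, without a version, for 5 of the 6 arrays. None is named for brain on chip A, whose mean between percentile 2 and percentile 98 matched the others (499.88 to 499.95). The background correction and scaling target are not given in these sources. Median signals were 194.6 to 257.7. The number of arrays limits the precision.

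Probe sets were named from the platform annotation and updated through Entrez identifiers (34837 of 35041 with 1 symbol). Another 936 had several symbols and 9160 had none. The 64 control probe sets of each chip were left out of comparisons. The floor was percentile 25 and the signal filter percentile 50 of a chip's 3 arrays. A gene was represented by whichever of its probe sets ranked highest on its chip in mean floored log2 signal. A difference from 2-fold was called, with no test. The members and lists were chosen with earlier results of these data known. Named genes are all members, the 3 highest and 3 lowest counted genes of each list, the 3 nearest genes for 3 members, and markers. Col17a1, Krt16, Krt6a, Rab25, Trp73 and Sfn were also named, after their values were seen.

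Scripts were tested on simulated data. Computation used matplotlib 3.10.9 and pandas 2.3.3 with numpy 2.4.6, under Python 3.11.15. Alternatives were floors at percentile 10 and 40, a pseudocount, no filter or percentile 75, median centring, quantile normalization, scaling on shared probe sets, the median over probe sets, and probe sets without a letter suffix. A ranking of probe sets without the floor was added after seeing the data.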

Additional observations from a re-analysis of the deposited data

How the results depend on the processing

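With the signal filter at percentile 75, which leaves fewer genes, 2 members were called between OSNs and residual epithelium, 1 between OSNs and brain and 2 between residual epithelium and brain, in place of 7, 2 and 7. With only probe sets without a letter suffix, which leaves Krt7 and Krt8 out, 1 member was called between OSNs and brain. The other 29 counts over settings were within 1.5 times, from 5 to 8 in the comparisons with residual epithelium, and none changed direction. The sign of Trp63 and Krt14 turned where another probe set stood for the gene. For OSNs over residual epithelium, Trp63 was at 0.36 with the floor at percentile 10 and with the ranking without the floor. Krt14 was at 0.67 with these and without suffixed probe sets, and at 0.41 with a pseudocount. For residual epithelium over brain, Krt14 was at -0.61 and -0.36 under the same settings. With the median over its probe sets, Trp63 was at 0.00 for OSNs over residual epithelium and at 0.35 for residual epithelium over brain, and both comparisons called 6 members. Krt18 ranged from -2.47 to -2.23, Krt8 from -2.53 to -1.26 and Krt5 from -1.85 to -1.41 for OSNs over residual epithelium. Bounds moved with the floor, as they are set by it. No paired analysis was possible because each population has 1 array per chip. Signals under the floor limit what can be said of OSNs and brain.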
